A study of Drosophila melanogaster with 12 samples.

Results

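The comparison described here is that of 0.5 M with 0.15 M sucrose in the fat body of control larvae, made across all genes of the table. It rests on the 6 control-genotype libraries of the 12 in the study, 3 on each diet, which were chosen by their labels and not by any measured value. The animals were female larvae of Drosophila melanogaster in the wandering stage of the third instar, when feeding ends. They came from males of the VDRC stock 60000, named w1118 in the sample titles and used as the control. These males were crossed to females with UAS-Dcr2 on the X chromosome and the driver r4-GAL4. Both diet groups therefore carried Dicer-2 under a fat body driver, and neither is a wild-type group. The other 6 libraries came from the same cross with the VDRC stock 37058 (UAS-EcR RNAi) on the same 2 diets. Larvae were reared on semi-defined food, and fat body tissue was dissected, sheared and spun before total RNA was depleted of ribosomal RNA and sequenced. The labels do not say whether the 3 libraries of a group came from separate crosses or pools, so the p-values speak only of the scatter among these 12 samples, part of which may be technical.

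The fat body combines the roles of liver and adipose tissue in insects. It takes up dietary sugar, makes the circulating sugar trehalose, and stores glycogen and triglyceride. Glucose that enters the pentose phosphate pathway yields NADPH, which fatty acid synthesis consumes, and glycerol 3-phosphate made from a glycolytic intermediate forms the backbone of triglyceride. In Drosophila the sugar sensor Mondo-Mlx and its target sugarbabe control many of these enzymes, and the fat body also releases peptides that report the nutritional state to the brain.

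The 9 fat body marker genes were all measured, and their summed signal lay between 2100000 and 2500000 on 0.15 M sucrose and between 2490000 and 4210000 on 0.5 M sucrose. These are normalised signals per gene without a unit of length. Signal sums of whole libraries ran from 8965783 to 9465017 on 0.15 M and were 15045575, 9079379 and 9586051 in replicates 1, 2 and 3 on 0.5 M. Replicate 1 on 0.5 M thus stood apart, although its median gene, at 103, was close to the 109 of both other libraries on that diet. Its 10 highest genes held 47.8% of the signal, against 39% to 42.9% in the other 5 control libraries. Correlations of log2 values were 0.967 to 0.984 within diets and 0.957 to 0.978 between them. EcR, w and Dcr-2 did not pass the test between the diets, with log2 differences of 0.08, 0.35 and -0.18 (limma, Benjamini-Hochberg adjusted p = 0.861, 0.415 and 0.769).

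Most of the genes that passed the test were higher on 0.5 M sucrose. Of 10047 genes tested, 173 changed (1.72%). Of these 17 fell (0.169% of those tested), and all the others, 90.2% of the changed genes and 1.55% of those tested, rose on 0.5 M sucrose. The share of rises among the calls was 78.2% after scaling to a common sum and 64.7% with library weights. Over all genes, called or not, 4878 had a positive log2 difference and 5169 a negative one. The rises spanned log2 differences of 0.57 to 4.51 with a median of 1.1, the falls -2.99 to -0.73 with a median of -1.1, and the median over all genes was -0.01. At least a 2-fold change was seen for 96 of the genes that rose and 13 of those that fell. The 3 libraries on one diet lay beyond all 3 on the other for each of the 173 genes, while over all genes 10.2% lay entirely above and 7.76% entirely below on 0.5 M. Genes were called with limma on log2(signal + 1) at a Benjamini-Hochberg adjusted p under 0.05. On that scale the changes of low genes are understated.

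The count leaned on single libraries. Without 0.5 M replicate 1 there were 105 calls (1.05%), 94 higher and 11 lower, and 97 of the 173 genes were still called. Without 0.5 M replicate 2 there were 359 calls, and without each of the other 4 control libraries they were between 74 and 134. In all 6 of these fits 57 genes kept their call, 55 that rose and 2 that fell. Each of these fits also took its estimate of spread from the EcR RNAi libraries. With the 6 control libraries alone, 54 of the 173 genes were still called. All 173 kept their sign in each of the 6 fits that left out 1 library, which was fixed beforehand, since their diets did not overlap. They also kept an unadjusted p under 0.05, but they had been selected at a stricter p from these same libraries.

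**Figure D1:**
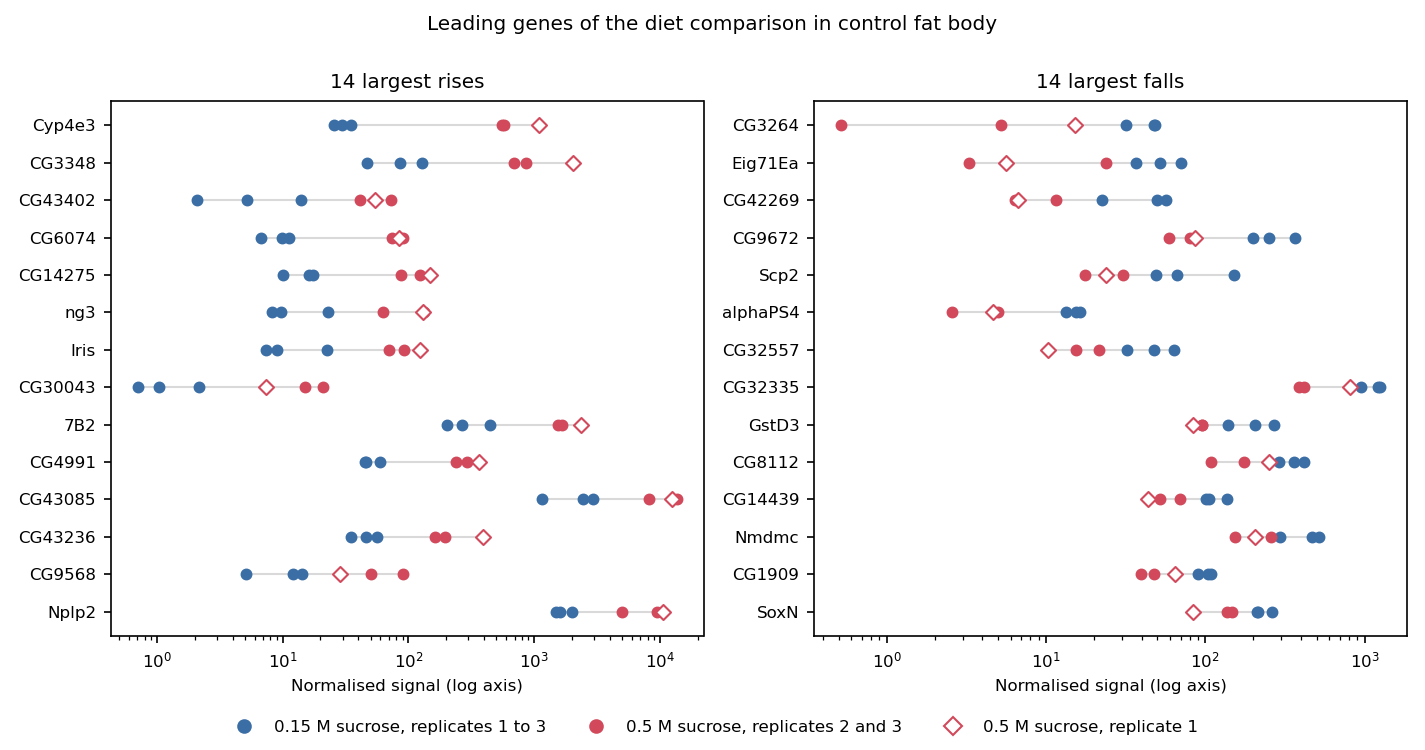
Normalised signal (log axis) of the 28 most changed genes in control fat body, 14 rises and 14 falls. Each point is a library, filled blue for 0.15 M sucrose, filled red for replicates 2 and 3 on 0.5 M and an open diamond for replicate 1 on 0.5 M, and the diets do not overlap for any of the 28 genes.

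The largest rise belonged to Cyp4e3 (FBgn0015035), a cytochrome P450 of the CYP4 family of fatty acid and hydrocarbon hydroxylases. Its signal was 35.0, 25.6 and 29.6 on 0.15 M sucrose and 1090, 555 and 573 on 0.5 M, a 24.6-fold ratio of means and a log2 difference of 4.51 ± 0.29 (SE; limma, Benjamini-Hochberg adjusted p = 6e-06). Each library on the high diet stood at least 10 times above every library on the low diet, and without replicate 1 the log2 difference was still 4.19. CG6074 (FBgn0039486), now named CAH9 as a carbonic anhydrase, went from 6.74, 9.97 and 11.2 to 83.5, 74.4 and 90.2, a log2 difference of 3.04 ± 0.27 (limma, Benjamini-Hochberg adjusted p = 1.19e-05). Its 3 high-diet libraries were close together, and replicate 1 lay between the other two. CG14275 went from 16.3, 10.1 and 17.4 to 150, 88.0 and 124, a log2 difference of 2.96 ± 0.27 (limma, Benjamini-Hochberg adjusted p = 2.2e-05).

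Further leading rises were those of 7B2, Nplp2, CG43085 and CG43236. The gene 7B2, which encodes the chaperone of a neuropeptide-processing convertase, had signals of 265, 202 and 448 on 0.15 M and 2360, 1540 and 1660 on 0.5 M. Its log2 difference was 2.65 ± 0.25 (limma, Benjamini-Hochberg adjusted p = 4.23e-05), and it was 2.46 without replicate 1. Nplp2, a neuropeptide-like precursor, had 2000, 1490 and 1600 on 0.15 M and 10700, 5040 and 9430 on 0.5 M. It rose by 2.24 ± 0.30 on the log2 scale (limma, Benjamini-Hochberg adjusted p = 0.00114). The high-diet libraries of Nplp2 spread over a wide range, yet the lowest of them was above 2 times the highest low-diet library. CG43085 rose from 2930, 2440 and 1150 to 12500, 8260 and 13600, a log2 difference of 2.47 ± 0.33 (limma, Benjamini-Hochberg adjusted p = 0.00113). CG43236, now named Mtkl after the antimicrobial peptide metchnikowin, rose from 35.2, 56.4 and 46.0 to 389, 162 and 194. Here replicate 1 was about 2 times the other high-diet libraries, and the log2 difference of 2.33 ± 0.34 (limma, Benjamini-Hochberg adjusted p = 0.00283) became 1.95 without it.

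CG4991, ng3 and Iris also rose, with CG4991 at 2.54 ± 0.17, ng3, a member of the new glue genes known from the salivary gland, at 2.96 ± 0.35, and Iris, a gene derived from a retroviral envelope, at 2.91 ± 0.41 (adjusted p of 5.59e-07 to 0.00348 by limma, Benjamini-Hochberg). All of these kept their call in each of the 6 fits that left out 1 library. The 7 measured salivary gland markers, which do not include ng3, all had negative log2 differences and 0 calls by limma, with 0 unadjusted p under 0.05. Without 0.5 M replicate 1, 3 of the 7 were positive, and their median went from -0.52 to -0.04. The signals of CG4991 were tight, with 46.2, 59.8 and 45.0 on 0.15 M and 364, 240 and 291 on 0.5 M. Of the 14 leading rises 4 did not keep their call in all 6 fits. CG3348, at 3.71 ± 0.68 with signals of 129, 86.6 and 47.1 against 2030, 862 and 695, was called only in the fit without 0.5 M replicate 2, and had an adjusted p of 0.117 without replicate 1 (limma, Benjamini-Hochberg). CG30043, at 2.69 ± 0.63, was called only without 0.5 M replicate 1 (limma, Benjamini-Hochberg adjusted p = 0.0492), and its low-diet signals were 0.701, 2.18 and 1.03. CG43402, at 3.07 ± 0.53, lost its call without 0.15 M replicate 1, 0.5 M replicate 1 or 0.5 M replicate 3 (limma, Benjamini-Hochberg adjusted p = 0.0693, 0.0916 and 0.0938). CG9568, at 2.27 ± 0.45, lost it without 0.15 M replicate 3 or 0.5 M replicate 3 (limma, Benjamini-Hochberg adjusted p = 0.0781 and 0.0621).

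Among the enzymes of sugar metabolism, the clearest rises were those of the glycerol phosphate enzymes. Gpo-1 (now Gpo1), the mitochondrial glycerol-3-phosphate dehydrogenase, had signals of 88.1, 93.2 and 86.8 on 0.15 M and 374, 217 and 313 on 0.5 M. Gpdh (now Gpdh1), the cytosolic enzyme that makes glycerol 3-phosphate, had 673, 502 and 361 against 1790, 1070 and 1280. Both rose and kept their call in all 6 fits, with log2 differences of 1.71 ± 0.22 and 1.44 ± 0.23 (limma, Benjamini-Hochberg adjusted p = 0.000749 and 0.00346). They were the 2 called members of the 11 measured genes of gluconeogenesis and the glycerol phosphate branch. Over all tested genes 1.55% were called higher, which is the share to set beside this and later list counts. All 11 had a positive log2 difference, with a median of 0.44, and 10 had one without 0.5 M replicate 1, with a median of 0.25. Pepck, the first committed enzyme of gluconeogenesis, had 16100, 15200 and 16800 against 44600, 25000 and 25300. Its log2 difference of 0.93 ± 0.23 fell just outside the threshold (limma, Benjamini-Hochberg adjusted p = 0.0572).

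Zw and Pgd, whose dehydrogenases form NADPH in the oxidative branch of the pentose phosphate pathway and feed fatty acid synthesis, both rose. Zw had 80.7, 130 and 110 on 0.15 M and 193, 217 and 224 on 0.5 M, a log2 difference of 1.0 ± 0.19 (limma, Benjamini-Hochberg adjusted p = 0.0121). Pgd had 1400, 1270 and 999 against 3240, 1890 and 2910, a difference of 1.11 ± 0.21 (limma, Benjamini-Hochberg adjusted p = 0.00994). For Zw replicate 1 was the lowest of the high-diet libraries, and for Pgd the highest. Both were still called without replicate 1, at 1.07 and 0.95 on the log2 scale. Zw lost its call without 0.15 M replicate 1 or 0.5 M replicate 3, and Pgd without 0.15 M replicate 3 or 0.5 M replicate 3 (limma, Benjamini-Hochberg adjusted p from 0.0502 to 0.061). These were 2 of 7 measured pentose phosphate genes, of which all 7 had positive log2 differences. The list median was 0.61, and 0.34 without replicate 1. Transaldolase, listed as Tal, was next at 0.83 ± 0.22 (limma, Benjamini-Hochberg adjusted p = 0.0653). A further NADPH-related gene, chosen after its values were seen, was CG6145 (now Nadk1a), an NAD kinase, which rose by 0.69 ± 0.16 (limma, Benjamini-Hochberg adjusted p = 0.0392) and kept its call in 2 of the 6 fits.

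The enzymes of glycolysis itself did not pass. Of 14 measured, 0 were called by limma and 4 had an unadjusted p under 0.05, with a median log2 difference of 0.34. The smallest p values belonged to Pgi at 0.65 ± 0.24, Pgk at 0.49 ± 0.18 and PyK at 0.40 ± 0.18 (adjusted p of 0.216 to 0.322 by limma, Benjamini-Hochberg). A p that misses the threshold does not show that these genes were alike on both diets. In the glycogen and trehalose list 1 of 13 genes rose. It was CG33138 (now AGBE), the glycogen branching enzyme, from 2610, 3020 and 1920 to 7270, 3750 and 5220. Its log2 difference of 1.08 ± 0.23 (limma, Benjamini-Hochberg adjusted p = 0.0226) lost the call without 0.15 M replicate 1 or 3 or 0.5 M replicate 3, with adjusted p up to 0.126 (limma, Benjamini-Hochberg). Tps1, trehalose synthase, and Tret1-1, a trehalose transporter, had log2 differences of 0.63 ± 0.24 and 0.66 ± 0.20 (limma, Benjamini-Hochberg adjusted p = 0.239 and 0.138). Of 13 measured sugar sensing genes 1 rose, sug, which encodes the sugar-induced transcription factor sugarbabe. Its signals were 74.1, 199 and 135 on 0.15 M and 330, 263 and 243 on 0.5 M, a difference of 1.13 ± 0.26 just inside the threshold (limma, Benjamini-Hochberg adjusted p = 0.0486). The low-diet libraries of sug spread over more than a 2-fold range, and the call was lost in all but the fit without 0.15 M replicate 2, with an adjusted p of 0.231 without replicate 1 (limma, Benjamini-Hochberg). In the annotation used for names, sug overlaps CG13319, which lies on the same strand and rose as well. How far the 2 genes share reads was not tested. Mio (now Mondo), the sensor itself, had 588, 617 and 557 against 783, 828 and 676, a difference of 0.37 ± 0.18 (limma, Benjamini-Hochberg adjusted p = 0.356).

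**Figure D2:**
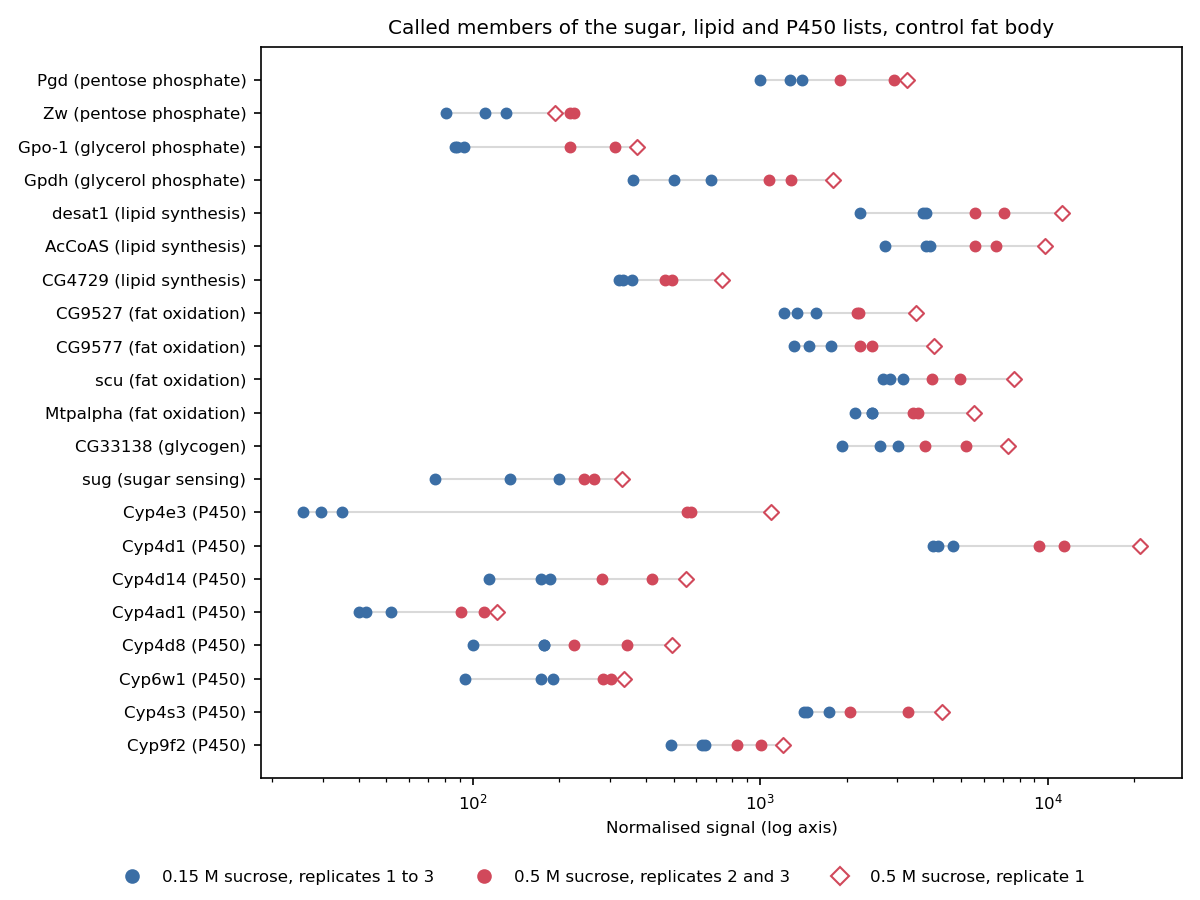
Normalised signal (log axis) of every called gene in the sugar, lipid and cytochrome P450 lists, with the list in brackets. Points are libraries in the colours of the leading genes' plot, and the open diamond of 0.5 M replicate 1 is the highest point for 20 of the 21 genes, the exception being Zw.

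A few genes of lipid synthesis and a few of fatty acid oxidation rose. In the synthesis list 3 of 27 genes rose and 0 fell, with a median log2 difference of 0.43, and of 0.25 without replicate 1. The desaturase gene desat1, whose product makes monounsaturated fatty acids, had 3770, 3680 and 2220 on 0.15 M and 11200, 5600 and 7030 on 0.5 M. Its log2 difference was 1.28 ± 0.25 (limma, Benjamini-Hochberg adjusted p = 0.0146), 1.0 without replicate 1, and its adjusted p without 0.15 M replicate 3 was 0.0862 (limma, Benjamini-Hochberg). AcCoAS, which makes acetyl-CoA from acetate, had 3780, 3890 and 2710 against 9790, 5570 and 6620, a difference of 1.06 ± 0.22 (limma, Benjamini-Hochberg adjusted p = 0.018). It lost its call without 0.15 M replicate 3 or 0.5 M replicate 3 (limma, Benjamini-Hochberg adjusted p = 0.105 and 0.0535). CG4729 (now Agpat3), an acyltransferase of phosphatidic acid synthesis, rose by 0.71 ± 0.16 (limma, Benjamini-Hochberg adjusted p = 0.0328) and was called only in the fit without 0.5 M replicate 2. ACC and the fatty acid synthase gene CG3523, the core of fatty acid synthesis, had log2 differences of 0.50 and 0.43 and were not called. These 2 genes were named after their values were seen.

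In the oxidation list 4 of 22 genes rose and 0 fell, with a median of 0.53 and of 0.32 without replicate 1. The 4 genes were CG9527 (now Acox3), a peroxisomal acyl-CoA oxidase, CG9577, an enoyl-CoA hydratase family member, scu, a mitochondrial hydroxyacyl-CoA dehydrogenase, and Mtpalpha, the trifunctional protein of mitochondrial beta-oxidation. CG9527 had 1570, 1340 and 1210 on 0.15 M and 3490, 2200 and 2170 on 0.5 M, and scu 2830, 2670 and 3150 against 7650, 3950 and 4950. In all 4 genes replicate 1 was the highest library by a wide margin. The log2 differences were 0.91 ± 0.18, 0.90 ± 0.19, 0.88 ± 0.20 and 0.79 ± 0.19 in that order (limma, Benjamini-Hochberg adjusted p from 0.0173 to 0.0486), and 0.68, 0.64, 0.62 and 0.56 without replicate 1. Without that library the first 3 were still called and Mtpalpha was not (limma, Benjamini-Hochberg adjusted p = 0.0681). Mtpalpha was called only in the fit without 0.5 M replicate 2, with adjusted p up to 0.184 in the others (limma, Benjamini-Hochberg). The first 3 lost their call without 0.15 M replicate 2, scu and CG9577 also without 0.15 M replicate 1, scu and CG9527 without 0.15 M replicate 3, and scu without 0.5 M replicate 3, at adjusted p up to 0.138 (limma, Benjamini-Hochberg).

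Peroxisomal genes, looked up after the values had been seen, included Pmp70 (now Abcd3), the membrane transporter that brings fatty acyl-CoA into the peroxisome. Its signals were 228, 261 and 306 on 0.15 M and 548, 468 and 486 on 0.5 M, without overlap and with close high-diet libraries. It rose by 0.92 ± 0.15 (limma, Benjamini-Hochberg adjusted p = 0.00351), and by 0.86 without replicate 1, and kept its call in all 6 fits. Mfe2, the multifunctional enzyme of peroxisomal beta-oxidation, rose by 0.75 ± 0.17, and Pex5, the import receptor for peroxisomal proteins, by 0.87 ± 0.21 (limma, Benjamini-Hochberg adjusted p = 0.0382 and 0.0456). Both were called in only 1 of the 6 fits, and Pex5 had 637, 611 and 626 against 1760, 817 and 1040, so that replicate 1 stood far above the rest. In the annotation used for names, Pex5 overlaps CG14803, which lies on the opposite strand and rose as well. No source used here gives the strand setting of the counts, and how far the genes share reads was not tested. Pex5 was the 1 called gene of 14 measured peroxins, all of which had positive log2 differences, with a median of 0.33.

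Of 3 measured enzymes of coenzyme A synthesis 2 rose, again a list made after the values were seen. The pantothenate kinase gene fbl, which acts at the first step, had 346, 367 and 282 against 693, 595 and 586. It rose by 0.91 ± 0.15 (limma, Benjamini-Hochberg adjusted p = 0.00284), by 0.84 without replicate 1, and kept its call in all 6 fits. Ppat-Dpck, the enzyme of the last steps, rose by 0.84 ± 0.20 (limma, Benjamini-Hochberg adjusted p = 0.0399) and was called only without 0.5 M replicate 2, while Ppcs, at 0.15 ± 0.26, was not called. Of 4 adenylate kinase genes, which balance adenine nucleotides, 2 rose, Adk1 by 1.35 ± 0.20 and Adk3 by 0.79 ± 0.18 (limma, Benjamini-Hochberg adjusted p = 0.00204 and 0.0338). Adk1 had 299, 276 and 191 against 710, 530 and 699 and kept its call in all 6 fits, and Adk3 in 2.

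A mitochondrial carrier, an amino acid enzyme and a kinase subunit, picked after their values were seen, were also among the 57 genes called in all 6 fits. Dic1, the mitochondrial dicarboxylate carrier, had 189, 201 and 229 on 0.15 M and 569, 429 and 373 on 0.5 M. It rose by 1.12 ± 0.17 (limma, Benjamini-Hochberg adjusted p = 0.00208), with its neighbour poly, which overlaps it in the annotation, at 0.75. The gene listed as asparagine-synthetase, which makes asparagine from aspartate, had 857, 828 and 690 against 2610, 1360 and 1750 and rose by 1.22 ± 0.20 (limma, Benjamini-Hochberg adjusted p = 0.00351). Pka-R1, the regulatory subunit of protein kinase A, had 530, 613 and 615 against 1500, 1330 and 1340, with little spread on either diet. Its rise was 1.25 ± 0.15 (limma, Benjamini-Hochberg adjusted p = 0.000324) and 1.19 without replicate 1. Pka-R1 overlaps Mst77F in the annotation, which rose as well, by 1.37. In the list drawn up for amino acid catabolism 1 of 28 genes rose, T3dh, at 1.07 ± 0.24 (limma, Benjamini-Hochberg adjusted p = 0.0328), called only without 0.5 M replicate 2. T3dh was entered by its symbol, and its role in that pathway was not checked.

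CCHa2, a peptide that the fat body releases and that acts on the insulin-producing cells of the brain, had 994, 720 and 922 on 0.15 M and 2540, 1590 and 1990 on 0.5 M. All 3 high-diet libraries lay above all low-diet ones by at least 1.5 times. It rose by 1.20 ± 0.19 (limma, Benjamini-Hochberg adjusted p = 0.00236), by 1.03 without replicate 1, and kept its call in all 6 fits. It was the 1 called gene of 10 measured fat body signals, a list made after the values were seen. The others ranged from -0.36 to 0.46, with daw, the activin-like ligand dawdle, at 0.46 ± 0.19 (limma, Benjamini-Hochberg adjusted p = 0.292).

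The cytochrome P450 family, among the largest lists, held the most called genes of any list. The share called was higher in some smaller lists, such as pentose phosphate with 2 of 7 and oxidation with 4 of 22. Of 70 measured P450 genes 8 rose and 0 fell, at a median of 0.14, where 1.55% of all genes rose and 0.169% fell. In the fit without replicate 1 there were 2 rises and 1 fall among them, at a median of -0.01. The oxidases of the family use electrons from NADPH to hydroxylate lipids, hormones and foreign compounds. Beside Cyp4e3 the genes that rose were Cyp4d1, with 4670, 4150 and 3980 on 0.15 M and 21000, 9310 and 11400 on 0.5 M, and 6 genes with log2 differences of 0.78 to 1.38. Cyp4d1 rose by 1.62 ± 0.28 (limma, Benjamini-Hochberg adjusted p = 0.00779), by 1.27 without replicate 1, and kept its call in all 6 fits. The other 6 were Cyp4d14, Cyp4ad1, Cyp4d8, Cyp6w1, Cyp4s3 and Cyp9f2 (limma, Benjamini-Hochberg adjusted p from 0.0146 to 0.0486). All 6 lost their call without 0.5 M replicate 1, with an adjusted p of 0.0604 for Cyp4s3 to 0.166 for Cyp4d8 (limma, Benjamini-Hochberg), and in at least 1 fit without a low-diet library. Of the 8 genes 6 belong to the Cyp4 family, a grouping made after the values were seen. Of 20 measured Cyp4 genes 16 had positive log2 differences, with a median of 0.46, of 0.54 without replicate 1 and of 0.25 under scaling to a common sum. The other 50 P450 genes had medians of 0.10, -0.08 and -0.14. Cpr, the reductase that passes electrons to these enzymes, also named after the fact, had 395, 410 and 386 against 633, 571 and 601. It rose by 0.60 ± 0.14 (limma, Benjamini-Hochberg adjusted p = 0.0441), by 0.56 without replicate 1, and was called in 1 of the 6 fits.

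Of 29 measured glutathione S-transferases 1 rose and 1 fell, where 1.55% of all genes rose and 0.169% fell. Positive log2 differences were seen for 21 of the 29, and the median was 0.22. GstE8 had 160, 149 and 146 on 0.15 M and 308, 226 and 275 on 0.5 M, and its rise of 0.81 ± 0.14 (limma, Benjamini-Hochberg adjusted p = 0.00597) was kept in all 6 fits. GstD3 had 271, 138 and 204 against 84.0, 95.9 and 95.4, with tight high-diet libraries, and fell by 1.1 ± 0.24 on the log2 scale (limma, Benjamini-Hochberg adjusted p = 0.029). Its call was kept in 2 of the 6 fits and lost without 0.5 M replicate 1 (limma, Benjamini-Hochberg adjusted p = 0.111). In the polyol and NADPH list 1 of 11 rose, the aldo-keto reductase gene CG9436, and 1 fell, Nmdmc, a mitochondrial enzyme of folate metabolism. CG9436 was just inside the threshold at 0.60 ± 0.15 (limma, Benjamini-Hochberg adjusted p = 0.0486). It was called only without 0.5 M replicate 2, and its adjusted p without replicate 1 was 0.14 (limma, Benjamini-Hochberg). Nmdmc had 514, 295 and 466 against 206, 258 and 153 and fell by 1.04 ± 0.22 (limma, Benjamini-Hochberg adjusted p = 0.0208). The closest libraries of the diets were 295 and 258, and the call was kept in 2 of the 6 fits.

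The matrix genes vkg, a chain of collagen IV, and Pxn, peroxidasin, rose by 0.79 ± 0.17 and 0.88 ± 0.17 (adjusted p = 0.029 and 0.0124 by limma, Benjamini-Hochberg). The gene vkg had 1970, 2170 and 2090 on 0.15 M and 4290, 3370 and 3180 on 0.5 M, and Pxn 1730, 1490 and 1560 against 2680, 3040 and 3090. For Pxn replicate 1 was the lowest of the high-diet libraries. Cg25C (now Col4a1), the partner chain of vkg, had 3290, 4420 and 4420 against 8640, 6470 and 6160, just outside the threshold at 0.81 ± 0.20 (limma, Benjamini-Hochberg adjusted p = 0.0531). In the list of collagen and basement membrane genes vkg was the 1 called gene of 15, and Ppn, papilin, stood at -0.50 ± 0.17 (limma, Benjamini-Hochberg adjusted p = 0.177). The call of vkg was lost without each low-diet library or 0.5 M replicate 3, and that of Pxn without 0.15 M replicate 2 or 3 or 0.5 M replicate 3, at adjusted p up to 0.0949 (limma, Benjamini-Hochberg).

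Far fewer genes fell. CG9672 and CG42269 were the 2 that kept their call in all 6 fits. CG9672 had 253, 366 and 199 on 0.15 M and 86.0, 59.5 and 80.4 on 0.5 M, a log2 difference of -1.82 ± 0.31 (limma, Benjamini-Hochberg adjusted p = 0.00994). CG42269 had 57.0, 49.9 and 22.5 against 6.65, 6.42 and 11.6, a difference of -2.20 ± 0.40 (limma, Benjamini-Hochberg adjusted p = 0.00778). For both genes all 3 high-diet libraries lay well below the lowest low-diet library. CG3264 (now Alp8), an alkaline phosphatase gene, had the largest fall, -2.99 ± 0.68, with 48.1, 47.7 and 31.7 against 15.3, 0.518 and 5.24 (limma, Benjamini-Hochberg adjusted p = 0.0407). Eig71Ea, an ecdysone-induced gene, fell by 2.56 ± 0.58, from 70.9, 52.2 and 36.8 to 5.62, 23.8 and 3.27 (limma, Benjamini-Hochberg adjusted p = 0.0324). The high-diet libraries of both genes spread over more than a 5-fold range at low signal. Eig71Ea was called only without 0.5 M replicate 2, with an adjusted p of 0.132 without replicate 1, and CG3264 only without 0.5 M replicate 1 or 2 (limma, Benjamini-Hochberg).

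Other genes that fell were Scp2, a calcium-binding protein, at -1.72 ± 0.36, the integrin gene alphaPS4 at -1.69 ± 0.37, CG32557 (now Mco4), a multicopper oxidase, at -1.56 ± 0.31, and SoxN, a transcription factor, at -0.93 ± 0.20 (adjusted p of 0.0198 to 0.0289 by limma, Benjamini-Hochberg). SoxN had 263, 214 and 210 against 83.6, 148 and 136, and the replicate 1 value was the lowest. CG32557 had 64.0, 32.5 and 48.0 against 10.3, 15.5 and 21.4. Without replicate 1 the SoxN the difference was -0.68 (limma, Benjamini-Hochberg adjusted p = 0.0607), and Scp2, alphaPS4 and CG32557 had adjusted p of 0.0604, 0.0557 and 0.103. CG32335 (now meep), at -1.15 ± 0.27, went the other way. It had 1210, 1250 and 946 on 0.15 M and 811, 386 and 415 on 0.5 M, so that replicate 1 was nearest to the low-diet group. Without replicate 1 its difference was -1.49 (limma, Benjamini-Hochberg adjusted p = 0.0028), and it was not called in any other of the 6 fits. ZnT35C, the zinc transporter of the Malpighian tubule list, had 113, 103 and 112 against 57.0, 59.8 and 61.9 and fell by 0.87 ± 0.18 (limma, Benjamini-Hochberg adjusted p = 0.0215). Its libraries were the most alike of all falls named here. Its call was nonetheless lost in all but the fit without 0.5 M replicate 2.

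**Figure D3:**
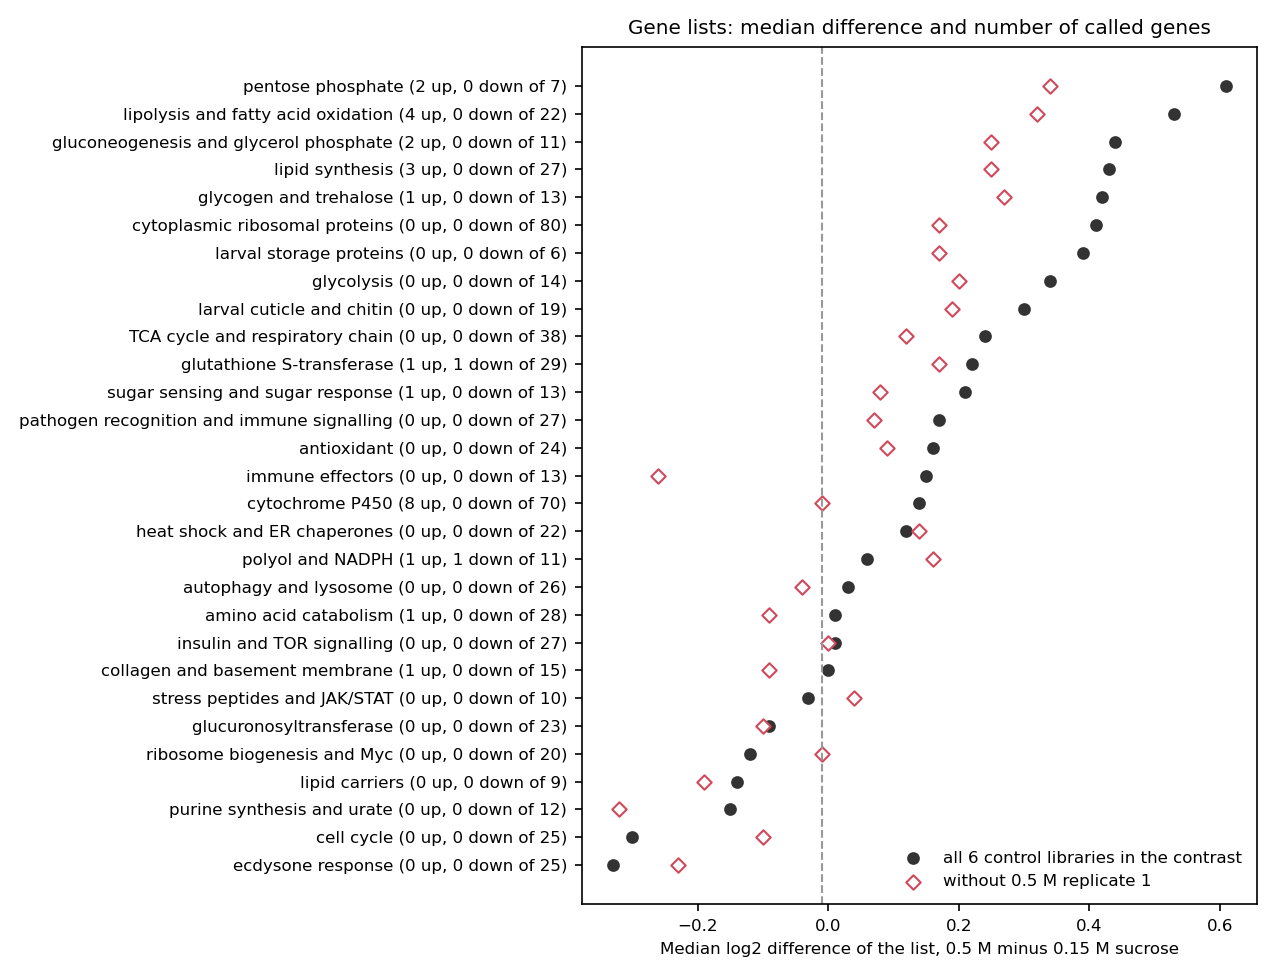
Median log2 difference of the 29 pathway lists, 0.5 M minus 0.15 M sucrose, from all 6 control libraries (filled circles) and without 0.5 M replicate 1 (open diamonds), with counts of called genes beside each name. The dashed line marks the median of all genes, -0.01, and for 19 lists the diamond lies nearer to 0 than the circle.

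The 29 pathway lists were drawn up with earlier results of these data known. Over these and the list of label checks, 27 of 664 distinct measured genes (4.07%) were called, against 1.72% of all genes. Of the 27, 25 were higher and 2 lower. The label checks, with 4 measured genes, had 0 calls. In 18 of the 29 pathway lists limma called no gene. The 80 cytoplasmic ribosomal protein genes were one of these. Of them 78 had positive log2 differences and 29 an unadjusted p under 0.05, with a median of 0.41, and of 0.17 without replicate 1. The 38 genes of the TCA cycle and respiratory chain had a median of 0.24, or 0.12 without replicate 1, and 7 of them an unadjusted p under 0.05. The 27 genes of insulin and TOR signalling had a median of 0.01, and 1 had an unadjusted p under 0.05. Among 25 ecdysone response genes 22 had negative differences, with a median of -0.33 and 4 unadjusted p under 0.05, and among 25 cell cycle genes 23, with a median of -0.30 and 5. Without replicate 1 these medians were -0.23 and -0.10.

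Immune effectors, whose peptides the fat body secretes, had 0 called among 13 measured genes and 1 unadjusted p under 0.05. Their median changed sign, from 0.15 to -0.26, when replicate 1 was left out. The 6 storage protein genes, the main products of this stage, had a median of 0.39 and 0 calls, with 0 unadjusted p under 0.05. Lsp2 alone had 663000, 630000 and 590000 on 0.15 M and 1300000, 671000 and 743000 on 0.5 M, so that replicate 1 stood far from the rest. Scaling each library to a common sum moved the median of all genes to -0.25, and 11 lists with a small positive median then had a negative one, between -0.24 and -0.02. These were the P450, sugar sensing, polyol and NADPH, insulin and TOR, antioxidant, glutathione S-transferase, immune effector, pathogen recognition, chaperone, autophagy and amino acid catabolism lists. Under the same scaling the pentose phosphate, oxidation, glycerol phosphate and lipid synthesis lists stayed positive, at 0.36, 0.28, 0.19 and 0.18. So did the glycogen and trehalose, ribosomal protein, storage protein, glycolysis, and cuticle and chitin lists, at 0.17, 0.16, 0.14, 0.09 and 0.05.

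**Figure D4:**
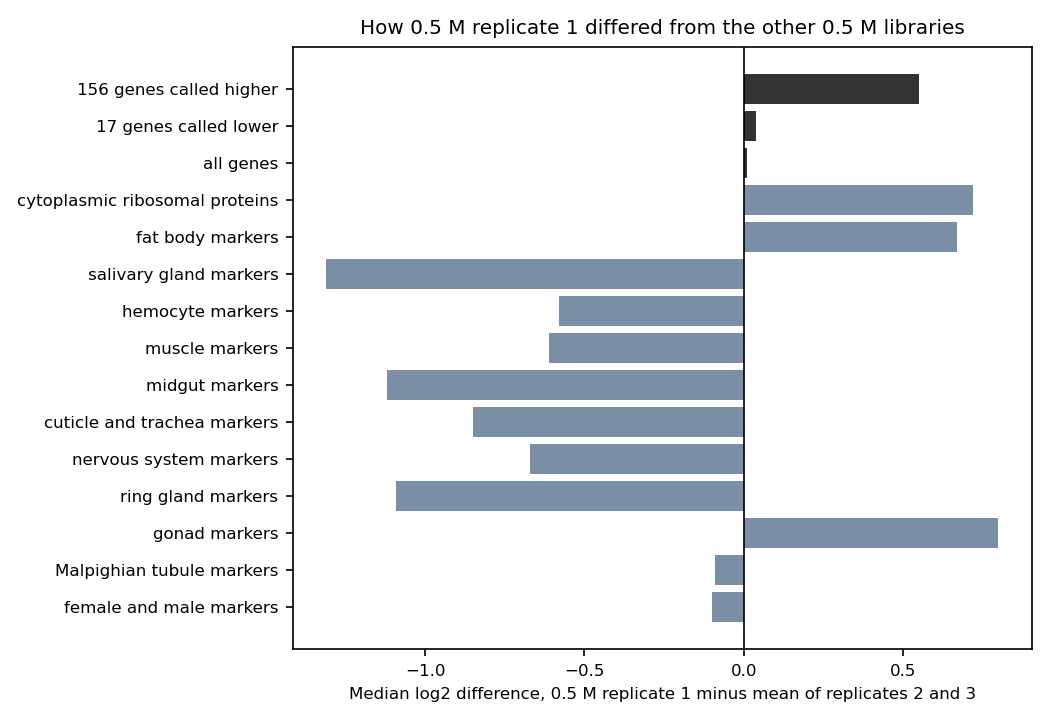
Median log2 difference between 0.5 M replicate 1 and the mean of replicates 2 and 3, for the called genes, all genes, ribosomal protein genes and all 11 marker lists. Bars start at 0, and replicate 1 was higher by 0.55 in the genes called higher, by 0.67 in fat body markers and by 0.80 in gonad markers, and lower in the other lists of markers, by 0.09 to 1.31.

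Replicate 1 on 0.5 M had a profile of its own. It was the highest of the 3 high-diet libraries for 130 of the genes that rose (83.3%), against 42.5% of all genes. Those genes were called with this library in the fit, so the share is partly set by their selection. In the genes that rose it exceeded the mean of the other 2 by a median of 0.55 on the log2 scale, in those that fell by 0.04 and in all genes by 0.01. Without it the median of the genes that rose was 0.95. The same library was higher by 0.47 in the tenth of genes most abundant on 0.15 M, which held 27 of the genes that rose and 1 of the 17 that fell. Fat body markers were higher in it by a median of 0.67 and ribosomal protein genes by 0.72. Markers of salivary gland, midgut and ring gland were lower by 1.31, 1.12 and 1.09, and those of cuticle and trachea, nervous system, muscle and hemocytes by 0.58 to 0.85. The 4 measured gonad markers went the other way and were higher in it by a median of 0.80. The Malpighian tubule markers and the female and male markers were close to the other libraries, at -0.09 and -0.10. In bulk tissue, fewer cells of a type and less RNA per cell cannot be told apart. The part of tissue makeup in the results was not tested.

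Between the diets, the marker lists of other tissues overlapped. Summed salivary gland markers, 7 measured, ranged from 20200 to 23800 on 0.15 M and from 7250 to 31300 on 0.5 M, muscle markers, 15 measured, from 21200 to 46900 and from 28700 to 44300, and midgut markers, 11 measured, from 4130 to 6470 and from 6250 to 8240. Hemocyte markers, 9 measured, ranged from 5070 to 8610 and from 5130 to 7700, with Pxn as their 1 called gene. In the lists for gonad, ring gland, nervous system, salivary gland, midgut, muscle, and cuticle with trachea, no marker was called by limma, while 3 of those genes had an unadjusted p under 0.05. None of the measured markers was listed at 0.

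**Figure D5:**
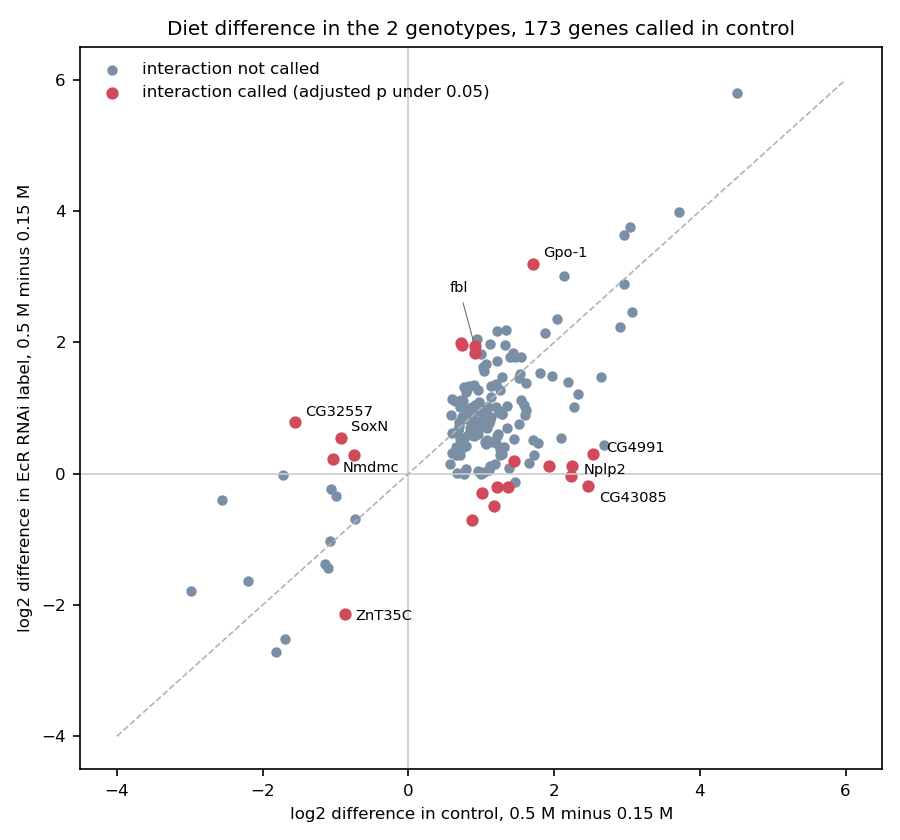
Log2 difference between the diets in control fat body (horizontal) and in the libraries labelled EcR RNAi (vertical) for the 173 genes called in control. The dashed line marks equal differences, red points the 21 genes with a called interaction, and the genes named lie off the line, CG4991, Nplp2 and CG43085 near 0 on the vertical axis and Gpo-1 and fbl above the line.

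The control response was compared with that of the libraries labelled EcR RNAi, which share no library with it but share the estimate of spread. There the same diets gave 2451 calls (24.4%), 1406 higher (14%) and 1045 lower (10.4%). Of the genes that rose in control, 105 also rose there, 1 fell and 50 were not called, and of the 17 that fell, 8 fell, 1 rose and 8 were not called. The median log2 difference of the genes that rose in control was 0.86 under the EcR RNAi label and 1.1 in control. The interaction, which is the diet difference under the EcR RNAi label minus that in control, was called for 394 genes (3.92%). It was called for 21 of the 173, 16 of those that rose and 5 of those that fell. Among the 16, the difference under the EcR RNAi label was smaller in 11 and larger in 5. These genes were selected on their control difference, which the interaction subtracts. Selection by itself therefore favours smaller differences under the EcR RNAi label, in the medians and in these counts.

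CG4991 was the clearest case of a rise in control that differed from the other genotype. Under the EcR RNAi label its signal was 298, 269 and 266 on 0.15 M and 317, 351 and 360 on 0.5 M, close to the control level on 0.5 M. Its diet difference was 0.30 there and 2.54 in control, an interaction of -2.23 ± 0.24 (limma, Benjamini-Hochberg adjusted p = 0.000465). CG43085 and Nplp2 had interactions of -2.65 ± 0.46 and -2.13 ± 0.43 (limma, Benjamini-Hochberg adjusted p = 0.00805 and 0.0138). Under the EcR RNAi label their libraries overlapped between the diets, with Nplp2 at 17400, 20000 and 9160 against 14500, 15000 and 18600. All but 1 of these signals lay above every control library of Nplp2 on either diet.

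Gpo-1 and fbl differed in the other direction. Gpo-1 went from 97.5, 55.2 and 70.3 to 684, 557 and 803 under the EcR RNAi label, an interaction of 1.5 ± 0.31, and fbl from 361, 373 and 455 to 1610, 1480 and 1490, an interaction of 1.04 ± 0.21 (limma, Benjamini-Hochberg adjusted p = 0.0149 and 0.0122). The low-diet libraries of the genotypes overlapped for both genes, and the high-diet ones did not overlap. Pmp70, outside the rule for named genes, had an interaction of 0.92 ± 0.21 (limma, Benjamini-Hochberg adjusted p = 0.0274). ZnT35C fell in both genotypes and by more under the EcR RNAi label, from 110, 117 and 114 to 31.3, 20.7 and 25.0, an interaction of -1.26 ± 0.26 (limma, Benjamini-Hochberg adjusted p = 0.0138). CG32557, SoxN and Nmdmc, which fell in control, had diet differences of 0.78, 0.55 and 0.22 under the EcR RNAi label. For Cyp4e3, with a difference of 5.80 under that label, for Zw, with 1.82, and for Pgd, with 0.86, the interaction was not called (limma, Benjamini-Hochberg adjusted p = 0.0985, 0.0962 and 0.672).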

How the data were processed

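RNA sequencing of dissected larval fat body gave 1 table of normalised signal per gene, which was deposited for 12 libraries. Cufflinks 1.1.0, TopHat 1.3.2, edgeR and Bowtie 0.12.7 appear in the submitters' processing notes, with no role stated. No source used here gives the genome build, annotation, counting, strand setting, gene filter or normalisation. In this table the deposited signal values are not whole and hold no 0, so depth is unknown, and no count test, counting interval or floor was used. Members and lists were chosen with earlier results of these data known, and 4 lists were made after the values were seen.

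From the deposited signal, log2(signal + 1) was fitted in limma 3.58.1 (R 4.3.3) as 4 groups of 3 over all 12 libraries, with trended and robust empirical Bayes. Groups came from the labels. All 10047 genes passed a minimum mean of 1. The diet contrast in control and its difference from that under the EcR RNAi label (the interaction) were tested, with Benjamini-Hochberg adjustment over all genes and calls at an adjusted p under 0.05. SE is limma's. The fit was tested on simulated data. Genes named were the 14 largest rises and 14 largest falls among called genes that had no overlap between diets and a higher group mean of 10 or more, every called gene of a list (or up to 3 of smallest p), and EcR, w and Dcr-2. Others are said to be chosen after their values were seen. Replicate numbers did not pair the libraries. Alternatives were other pseudocounts, filters, scalings, moderation, library weights, blocks and leaving out each control library. Current names and neighbours came from the BDGP6.54 annotation, which matched 9605 identifiers and left 442 without a match. The promoter description planned was not run, since no promoter sequences were used here. One result is not reported here.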

Additional observations from a re-analysis of the deposited data

Results flagged for a closer look

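The genes below are named genes whose diet difference under the EcR RNAi label differed from that in control, by limma's interaction term at a Benjamini-Hochberg adjusted p under 0.05. Values are log2 interactions, the difference under the EcR RNAi label minus that in control. Each control library was left out in turn, but no library under the EcR RNAi label was left out.

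Among genes that rose in control, Gpo-1 had an interaction of 1.5 and fbl of 1.04, both larger under the EcR RNAi label. Nplp2 at -2.13, CG4991 at -2.23 and CG43085 at -2.65 were smaller there, with diet differences of 0.12, 0.30 and -0.18. Among genes that fell in control, CG32557 at 2.33, SoxN at 1.49 and Nmdmc at 1.25 had differences of 0.78, 0.55 and 0.22 under the EcR RNAi label, while ZnT35C at -1.26 fell further. The adjusted p values of these 9 genes ran from 0.000465 to 0.0329 (limma, Benjamini-Hochberg), and the calls were kept in all 6 fits that left out 1 control library, except for Nmdmc. Its call was lost without 0.15 M replicate 1 or 3 or 0.5 M replicate 3 (limma, Benjamini-Hochberg adjusted p up to 0.0822).

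The remaining genes were not called for diet in control. Sox14, an ecdysone-response transcription factor, had an interaction of 1.81, from diet differences of -0.36 in control and 1.45 under the EcR RNAi label. Ugt58Fa, a glucuronosyltransferase, was at 1.58 (-0.81 and 0.77), the sugar sensor gene Mio at 1.26 (0.37 and 1.64), and Sesn, sestrin, at 1.07 (-0.31 and 0.76). The midgut trypsin gene deltaTry was at -1.79 (0.65 and -1.14), the heat shock gene Hsp68 at -2.21 (0.76 and -1.45), and phm, a ring gland enzyme of ecdysone synthesis, at -2.34 (-0.36 and -2.70). The call of deltaTry was lost without 0.5 M replicate 3 (limma, Benjamini-Hochberg adjusted p = 0.0752). The markers deltaTry and phm belong to other tissues, and the part of tissue makeup was not tested.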

How the results depend on the processing

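All 173 called genes kept their direction under each alternative in which they were fitted, while the number of calls moved. Only the scalings (common sum, common upper quartile and quantile normalisation) could have reversed a direction. Under every other alternative the direction was fixed beforehand, since the diets did not overlap for these genes. Against 173 calls, 17 of them lower, a common sum gave 101 (79 and 22, 78.2% higher), the 6 control libraries alone 60 (55 and 5), plain empirical Bayes 67 (63 and 4) and library weights 968 (626 and 342, 64.7% higher). A common upper quartile gave 26 and quantile normalisation 32 lower calls. Leaving out 1 control library gave 74 to 359 calls, 71 to 324 higher and 3 to 35 lower. The total of calls in pathway lists, 27, became 5 with 6 libraries, 5 with plain empirical Bayes, 104 with weights and 8 to 54 without 1 library. The total of called interactions, 394, became 149 with plain empirical Bayes, 1546 with weights and 183 to 532 without 1 library. The 2451 diet calls under the EcR RNAi label became 1405 with a common sum and 2253 to 2959 without 1 library. The causes were not tested.

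The interaction calls of named genes lost most often were those of Nmdmc (4 alternatives beside left-out libraries, limma, Benjamini-Hochberg adjusted p up to 0.0858) and, with a common sum, of ZnT35C, CG43085, Hsp68 and phm (limma, Benjamini-Hochberg adjusted p from 0.0528 to 0.166). Same-numbered libraries on the 2 diets did not deviate together, with correlations of -0.072, -0.031 and -0.048, so the numbers were not taken as pairs. A replicate block gave 171 calls with 12 libraries and 52 with 6 (47 higher, 5 lower), 5 in pathway lists, and 260 interactions. Other pseudocounts, no filter and a minimum mean of 10 or 100 left between 168 and 204 calls. Groups of 3 libraries and an unknown depth limit what low genes can show. The promoter description was not run.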

Other observations

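Of 151 genes that rose in control and were placed in the BDGP6.54 annotation, 21 (13.9%) had a neighbour that also rose, against 3.12% of all 9605 placed genes. They formed 11 pairs, of which 5 overlap in the annotation. Overlap was judged from whole gene spans, introns included, and how far these pairs share reads was not tested. The strand setting is not known, and it would not separate CG13319 from sug, which lie on the same strand. The overlapping pairs were CG13319 with sug, CG15861 with CG3770, Pka-R1 with Mst77F, poly with Dic1 and Pex5 with CG14803. The pairs that do not overlap were CG9527 with retm, nrv2 with CG11236, sug with CG17019, CG4716 with CG10799, CG32032 with CG13315 and Cyp9f2 with CG5167. CG13319, sug and CG17019 stand in a row, with log2 differences of 0.64, 1.13 and 1.21, or 0.64, 1.0 and 1.05 without 0.5 M replicate 1.

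Mitochondrial large ribosomal RNA, listed as mt:lrRNA, had a signal of 1066100 in 0.5 M replicate 1 and 288110 and 485470 in replicates 2 and 3. CR41583 had 837760, 441120 and 346630 in the same libraries.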
